A study of Mus musculus with 2 samples.

Results

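The 37 genes described here encode the collagen chains of the mouse other than those of types I and III and chains 1 to 4 of type IV, which build the interstitial fibrils and the glomerular basement membrane. They were chosen by symbol alone, as protein-coding genes of GENCODE M21 named Col, digits, a and digits, and 37 of 21938 protein-coding genes met the rule once the 7 excluded chains had been left out. Their chromatin was read in kidneys of B6CASTF1/J mice, males aged 25 days, which are first-generation crosses of C57BL/6J and CAST/EiJ. There was 1 group of 2 libraries, given separate biosamples and biological replicate numbers, and no untreated or other control to set them against.

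Collagens are proteins whose chains wind around each other into a common helix. They form fibrils, sit on the surface of fibrils, build sheet-like networks in basement membranes, make beaded filaments or anchoring fibrils, or span the cell membrane. In the kidney they make up the basement membranes of tubules, vessels and glomeruli and the thin interstitium between them, and the fibrillar chains are best known there for building up in fibrosis. Other chains are known mainly from cartilage, skin, cornea, muscle and nerve.

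DNase-seq maps chromatin that the nuclease DNase I can cut. A peak is a stretch cut often, and a footprint is a short stretch inside accessible chromatin that is protected from cutting, as by a bound protein. The authors deposited 125393 peaks and 237471 footprints for replicate 1, and 177001 peaks and 493495 footprints for replicate 2, so replicate 2 lists more of both. Peak heights are in the authors' signal units, whose low values rise in steps of 0.00855 in replicate 1 and 0.00497 in replicate 2, a ratio of 1.72 such as heights divided by depth would give; absolute depth is unknown. In bulk tissue a low peak in every cell and a high peak in few cells cannot be told apart. Kidney marker genes had promoter peaks in both libraries at 8 of 9 genes, against 65.3% of all protein-coding genes. The collecting duct gene Aqp2 had one in replicate 2 only, at a height of 0.462.

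A promoter peak is a peak within 500 bp of any transcription start site (TSS) of a gene. Of the 37 collagen genes, 22 had one in both libraries (59.5%), against 65.3% of all protein-coding genes. Another 4 had one in replicate 2 only (10.8%, against 2.71% of all protein-coding genes), and 11 had none in either library. The order of the shares was not stable: it turned with promoters of 2 kb on each side (70.3% of collagen genes, against 69.5% of all) and with replicate 2 alone (70.3%, against 68.0%). The collagen promoter peaks were low. Where both libraries had a peak, the median height over the 22 collagen genes was 1.13 in replicate 1 and 1.44 in replicate 2, against 7.49 and 7.01 over the 14329 protein-coding genes with a peak in both. Only 1 of the 22, Col16a1, lay above the median of those genes. With promoters of 2 kb on each side the medians were 2.21 and 2.21 over 26 collagen genes, against 7.34 and 6.99 over all genes with a peak there.

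**Figure D1:**
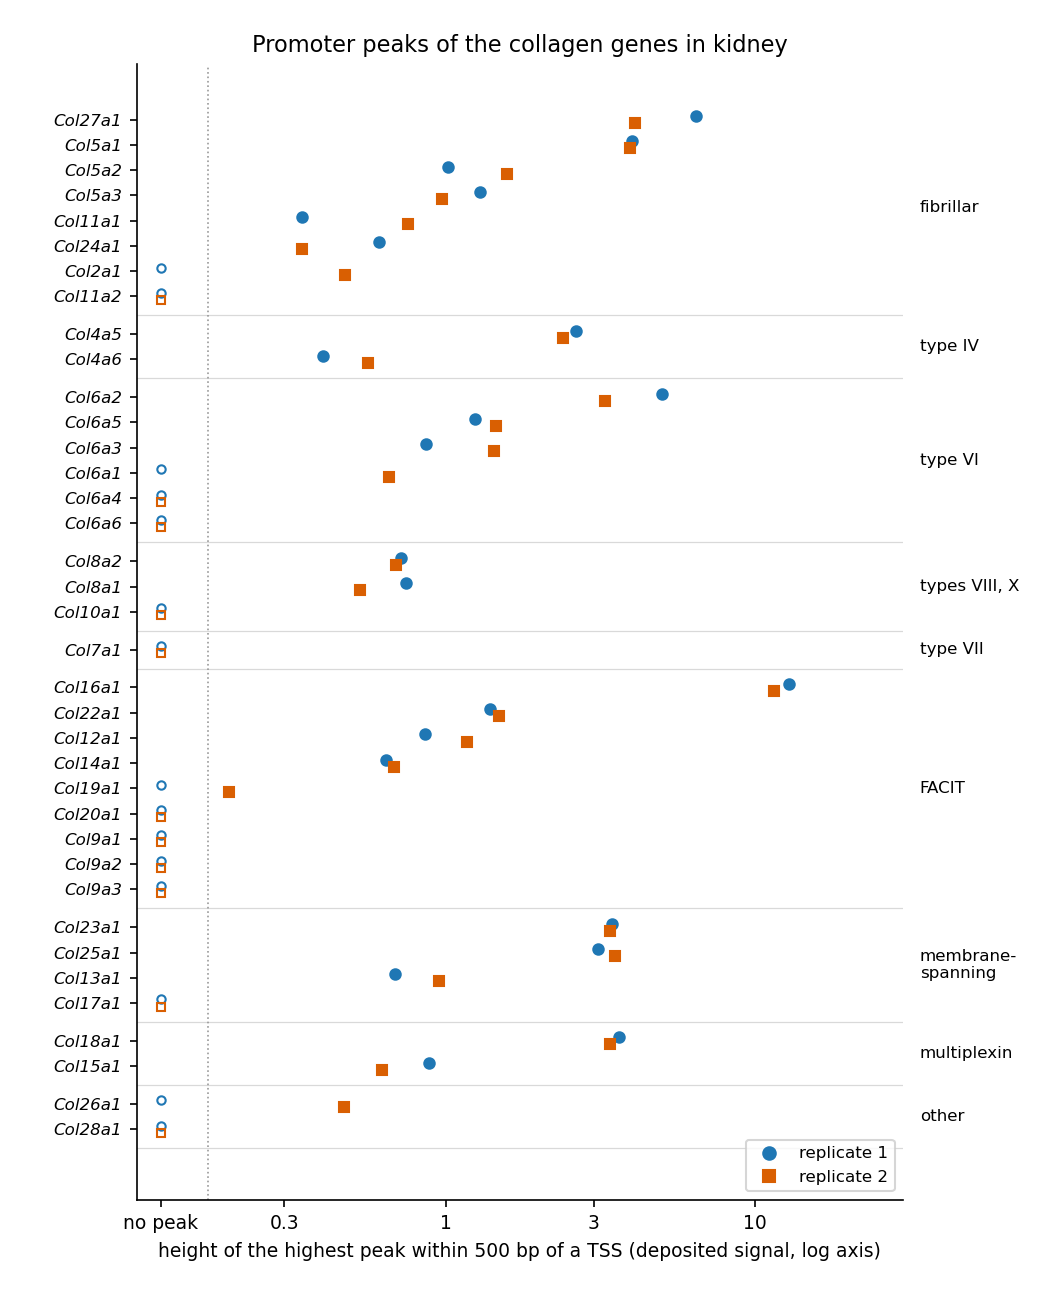
Height of the highest peak within 500 bp of a TSS (log axis) for each of the 37 collagen genes, grouped by structural class, with circles for replicate 1, squares for replicate 2 and open symbols for libraries with no peak. Col16a1 stands apart at 12.9 and 11.5, and 11 genes have no promoter peak in either library.

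Of the fibrillar chains, which assemble into striated fibrils, 6 of 8 had a promoter peak in both libraries, against 65.3% of all protein-coding genes. Col27a1, the chain of type XXVII, had the highest of these, 6.44 in replicate 1 and 4.10 in replicate 2, at a TSS 1431 bp inside the 5′ end of its gene model. The chains of type V, which co-assemble with type I and start fibrils, differed among themselves. Col5a1 had 3.98 and 3.93, with the start of 2810430I11Rik 627 bp away. Col5a2 had 1.02 and 1.58, and Col5a3 had 1.29 and 0.969. The Col5a1 values were thus above those of Col5a2 and Col5a3 in each library, while Col5a2 and Col5a3 changed order between libraries. Col24a1, the chain of type XXIV, had 0.607 and 0.343. Col11a1, a chain of the thin fibrils of cartilage, had 0.342 and 0.755, the largest log2 ratio between libraries of the 22 genes, whichever library was higher. Col2a1, the main collagen of cartilage, had a peak of 0.472 in replicate 2 and none in replicate 1, and Col11a2 had none in either.

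Chains 5 and 6 of type IV are basement membrane chains. Chain 5 joins chains 3 and 4 in the mature glomerular basement membrane and is the chain most often altered in Alport syndrome, and chain 6 pairs with chain 5 in Bowman's capsule. Col4a5 had promoter peaks of 2.64 in replicate 1 and 2.39 in replicate 2, and Col4a6 had 0.402 and 0.561. Both genes lie on the X chromosome, of which male mice have 1 copy, and they run in opposite directions from TSSs 1309 bp apart. Each had a peak of its own, and the Col4a5 peak was the higher in both libraries. With promoters of 2 kb on each side the Col4a5 peak counts for Col4a6 too, whose mean over both libraries then is 2.52, against 0.482 with 500 bp. The other 2 divergent pairs of type IV genes, among the excluded chains, shared 1 promoter peak per pair. The TSSs of Col4a4 and Col4a3 were 127 bp apart and their peak measured 3.98 and 4.14. Those of Col4a1 and Col4a2 were 21 bp apart, with a peak of 4.78 and 3.64.

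The type VI chains form beaded filaments around many cell types. Of their genes, 3 of 6 had a promoter peak in both libraries, against 65.3% of all protein-coding genes. Col6a2 had 5.01 and 3.26. Its partner chain gene Col6a1, which lies 85.2 kb away on the same strand, had 0.656 in replicate 2 and no peak in replicate 1. Col6a3, which completes the classical heterotrimer, had 0.863 and 1.43. The genes of the 3 classical chains therefore had promoter heights that differed by several fold in the same tissue. The 3 further chains lie in a row on chromosome 9, 27.9 kb and 28.8 kb apart. Of them Col6a5 had 1.24 and 1.45, and neither Col6a4 nor Col6a6 had a promoter peak. Col6a4 had 45 bases in replicate 1 with a listed false discovery rate of the cut rate, and 0 in replicate 2.

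The chains of types VIII and X form short-chain networks. Col8a1 had promoter peaks of 0.744 and 0.527 and Col8a2 of 0.718 and 0.691, so the 2 chains of type VIII, known from vessels and cornea, lay close together. Col10a1, the collagen of hypertrophic cartilage, had neither a promoter peak nor any peak in its gene body and 10 kb flanks in either library. It was the only one of the 37 genes with none. Col7a1, the chain of the anchoring fibrils of skin, had no promoter peak.

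Among the fibril-associated chains with interrupted helices (FACIT), 4 of 9 had a promoter peak in both libraries, against 65.3% of all protein-coding genes. Col16a1, a chain found at fibrils and basement membrane zones, had the highest promoter peak of all 37 genes, 12.9 in replicate 1 and 11.5 in replicate 2. The start of a neighbour, Gm12963, lies 66 bp from its TSS, so the peak cannot be given to 1 of the 2 genes. Col22a1, a chain of tissue junctions such as that of muscle and tendon, had 1.39 and 1.48. The related chains Col12a1 and Col14a1, which bind the surface of type I fibrils, had 0.855 and 1.17, and 0.641 and 0.681. Within 2 kb of their TSSs lay higher peaks, with means over both libraries of 4.26 and 5.34. Col19a1 had a peak in replicate 2 only, of 0.199, the lowest promoter height of the set. Col20a1 and the 3 chains of the cartilage collagen type IX (Col9a1, Col9a2 and Col9a3) had none.

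Of the membrane-spanning chains, 3 of 4 had a promoter peak in both libraries, against 65.3% of all protein-coding genes. Col23a1 had 3.45 and 3.38. Col25a1, known from the innervation of muscle, had 3.10 and 3.51, at a TSS 49.4 kb inside the 5′ end of its gene model; at that 5′ end itself the mean of both libraries was 0.303. Col13a1, found at cell contacts, had 0.684 and 0.949, a mean of 0.816. That mean was 3.05 with the start sites of the comprehensive annotation and 10.5 with promoters of 2 kb on each side. Col17a1, a chain of the hemidesmosomes that tie epithelial cells of skin to their basement membrane, had no promoter peak. Both multiplexins, proteoglycan collagens of basement membrane zones, had peaks. Col18a1, the source of the fragment endostatin, had 3.62 and 3.40 at the 5′ end of its gene and lower peaks of 1.36 and 1.73 at internal TSSs 52.6 kb downstream. Col15a1 had 0.880 and 0.621, with the start of Gm12426 298 bp away. Of the remaining chains, Col26a1 had 0.467 in replicate 2 only and Col28a1 had none.

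Over the 22 genes the log2 ratio of replicate 2 to replicate 1 heights had a median of -0.02 with an SD of 0.50, and 10 of 22 were higher in replicate 2. It ran between -0.82 for Col24a1 and 1.14 for Col11a1. Differences between genes of less than about this spread cannot be ordered with 2 libraries. At the 4 genes with a promoter peak in replicate 2 only, no base of the promoter had a listed false discovery rate in replicate 1. A set of 7 chains known from cartilage (types II, IX, X and XI) was put together after the values had been seen. It had a promoter peak in both libraries at 1 of 7 genes, Col11a1, against 21 of 30 of the other collagen genes. Over all protein-coding genes the share was 65.3%. The count of this set changed with the setting. The shorter, stricter peak list lost Col11a1, and promoters of 2 kb on each side gained Col2a1 and Col9a2. The set holds those types only and is not a full list of chains found in cartilage, and the others include Col27a1. Fibroblast marker genes had a promoter peak in both libraries at 4 of 6 (Postn had none in either), against 65.3% of all protein-coding genes. Chondrocyte marker genes had one at 2 of 7 (Matn3 and Hapln1) and epidermis marker genes at 1 of 5 (Krt10). Where both libraries had a peak, fibroblast genes had median heights of 2.65 and 2.85, and chondrocyte genes 2.42 and 3.17. The Krt10 peak measured 9.9 and 8.7.

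Promoter peaks are most common at promoters rich in CpG dinucleotides, so the genes were divided by the CpG observed over expected ratio around the TSS. The 3 classes were of equal size over all protein-coding genes, with bounds at 0.358 and 0.74, a division chosen after values had been seen. The ratio, like the peak height, was the highest over all TSSs of a gene. The median number of TSSs was 1 over the collagen genes and 2 over all genes, and the effect of this difference was not tested. The median ratio was 0.455 over the collagen genes and 0.606 over all. In the lowest class 6 of 13 collagen promoters had a peak in both libraries (46.2%), against 16.9% of all genes in that class. In the middle class it was 10 of 18 (55.6%), against 82.2%. In the highest class it was 6 of 6 (Col12a1, Col13a1, Col15a1, Col23a1, Col27a1 and Col5a1), against 96.9%. The collagen share was above the background in the lowest class and below it in the middle class. Heights were lower for the collagen genes in all 3 classes. In the lowest their medians were 0.940 and 1.44, against 1.30 and 1.49 over all genes with a peak there, a small gap in replicate 2. In the middle class they were 1.97 and 1.68, against 5.75 and 5.90, and in the highest 2.17 and 2.28, against 10.6 and 9.40.

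A promoter footprint was listed in both libraries at 20 of the 37 genes (54.1%), against 62.8% of all protein-coding genes. These were the 22 genes with a peak in both libraries apart from Col24a1, which had none in either, and Col8a2, which had 0 in replicate 1 and 3 in replicate 2. Col18a1 had the most, 7 in replicate 1 and 12 in replicate 2 over all its TSSs. Col5a1 had 5 and 12, Col23a1 had 5 and 10, and Col25a1 had 3 and 9.

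The promoter peaks of 4 genes show what these footprints cover: Col16a1 and Col27a1 as the highest of the set, and Col4a5 and Col4a6 as the divergent pair. The sequences are from GRCm38.p6, the assembly behind mm10, 5′ to 3′ on the strand of the gene, and only the bases of the peak that lie outside every annotated exon are shown. The mice also carry CAST/EiJ alleles, which may differ from these letters. Capitals mark bases inside a footprint of both libraries. They cover chr4:130047775-130047839 (plus strand), chr4:63215241-63215400 (plus), chrX:141475281-141475384 (plus) and chrX:141474077-141474180 (minus).
Col16a1 promoter: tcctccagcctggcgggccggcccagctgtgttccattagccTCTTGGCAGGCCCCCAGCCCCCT
Col27a1 promoter: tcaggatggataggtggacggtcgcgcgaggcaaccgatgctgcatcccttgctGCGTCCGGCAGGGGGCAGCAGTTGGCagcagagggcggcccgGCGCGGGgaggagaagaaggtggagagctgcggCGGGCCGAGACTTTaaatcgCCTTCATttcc
Col4a5 promoter: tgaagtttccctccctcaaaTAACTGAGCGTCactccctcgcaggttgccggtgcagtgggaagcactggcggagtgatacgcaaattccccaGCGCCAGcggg
Col4a6 promoter: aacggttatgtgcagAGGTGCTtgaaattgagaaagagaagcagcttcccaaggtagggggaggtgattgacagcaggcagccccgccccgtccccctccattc

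The Col16a1 stretch ends in a block of 23 protected bases that holds the NFI site TTGGCA. In Col27a1, 54 of 160 bases were protected in both libraries. The core motif of the insulator protein CTCF, searched for after the values had been seen, matched at bases 62 to 71 and lay wholly inside the footprints, and a second match at bases 82 to 91 lay outside them, as did the GC box GGGCGG at bases 87 to 92 that overlaps it. In Col4a5 the footprints of both libraries covered 19 of 104 bases, and in Col4a6 they covered 7 of 104. The GC box of Col4a6, on the opposite strand at bases 84 to 89, was outside them, as was a CTCF core match at bases 54 to 63. A match is a run of letters and was not tested for binding.

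Over the window of 250 bp before to 50 bp after the TSS, on both strands, the GC box GGGCGG was in 22 of 37 collagen promoters (59.5%), against 44.9% of all protein-coding promoters. The CCAAT box CCAAT was in 37.8%, against 38.8%, and the TATA box TATAAA in 10.8%, against 12.5%. The NFI site TTGGCA was in 18.9%, against 13.6%. The E box CACGTG was in 2.70%, against 7.79%, and the AP-1 site TGANTCA in 2.70%, against 6.70%. The ETS site CCGGAAG was in 0 of 37, against 11.2% of all promoters. The HNF4 site CAAAGTCCA was in 0 of 37, against 0.419%, the HNF1 site GTTAAT in 5.41%, against 6.35%, and the forkhead site TGTTTAC in 2.70%, against 2.98%. With 37 promoters, 1 promoter is 2.7%, so most of these shares differ by a few genes.

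The collagen genes are long, with a median of 114 kb against 17.4 kb over all protein-coding genes, and most of their peaks lay inside the genes. A locus was taken as the gene body with 10 kb on each side. Of the 37 loci, 36 held a peak in both libraries (97.3%), against 82.9% of all protein-coding genes, whose loci are shorter. The median locus held 7 peaks in replicate 1 and 10 in replicate 2, against 4 and 6 over all genes. Per kb the order was the other way round, with medians of 0.0421 and 0.0811 peaks, against 0.0849 and 0.117. Footprints per kb had medians of 0.0731 and 0.212, against 0.181 and 0.355.

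The gap in density was smaller under some other ways of counting and remained under others. With peaks within 1 kb of any TSS left out, the mean of the medians of both libraries was 0.0497 peaks per kb over the collagen loci, against 0.0514 over all genes. With flanks of 50 kb it was 0.0922, against 0.0969. Without flanks it was 0.05941, against 0.09545. With all peaks and densities averaged over both libraries for each gene, the 22 collagen genes of at least 100 kb had a median of 0.0506 peaks per kb, against 0.0655 over 2492 genes of that length. The 15 shorter ones had 0.107, against 0.110. All 37 collagen genes had 0.0698 on the same average, against 0.105 over the 15741 genes within their range of lengths. On this average 14 of 37 collagen loci lay above the median of all genes.

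**Figure D2:**
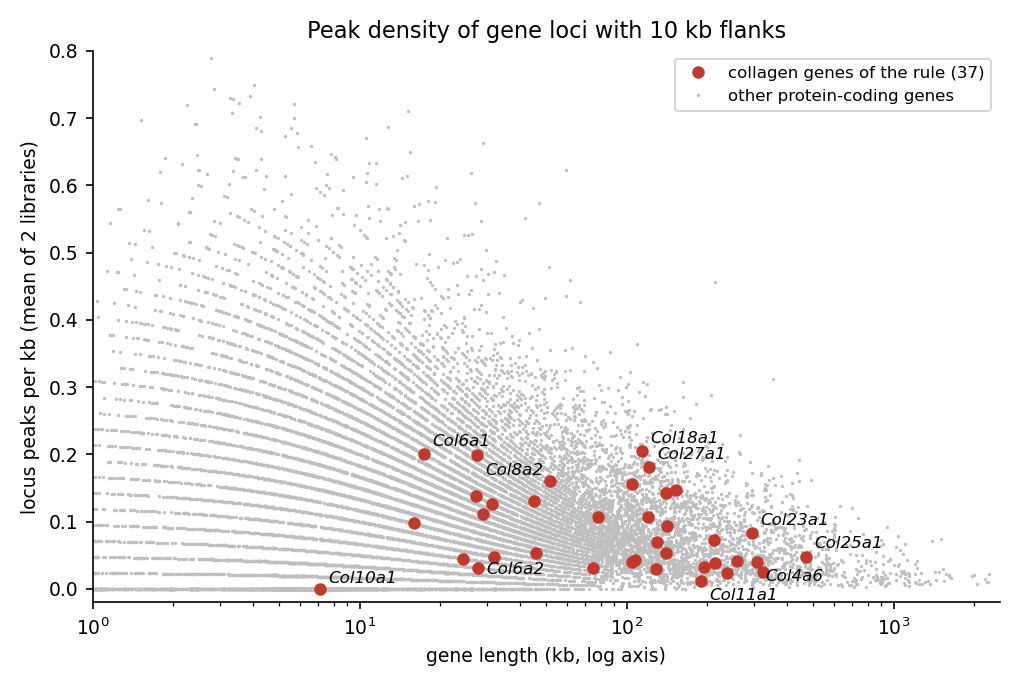
Peaks per kb of the gene body with 10 kb flanks, as the mean of both libraries, against gene length (log axis), with the 37 collagen genes in red and other protein-coding genes in grey. The collagen genes run between 0 for Col10a1 and 0.205 for Col18a1, and 733 other genes under 1 kb long or above 0.8 peaks per kb are not drawn.

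The densest locus was that of Col18a1, with 25 peaks in replicate 1 and 30 in replicate 2 and 0.205 peaks per kb, above 79.6% of all protein-coding genes. Next were the short loci of Col6a1 (6 and 9 peaks, 0.201 per kb) and Col8a2 (8 and 11 peaks, 0.200 per kb). Many of the peaks of these 2 loci lay in the flanks. Without flanks the mean of both libraries was 2.5 peaks for Col6a1, against 7.5 with them, and 4.5 for Col8a2, against 9.5. In the Col6a1 locus with flanks, 6 of 6 peaks of replicate 1 and 8 of 9 of replicate 2 were more than 1 kb from any TSS. Col27a1 had 21 and 30 peaks (0.181 per kb) and Col16a1 had 10 and 13 (0.161 per kb). Col15a1 (16 and 23 peaks, 0.156 per kb), Col5a1 (22 and 29, 0.147 per kb) and Col13a1 (18 and 28, 0.143 per kb) completed the 8 densest. The multiplexins were the densest class of more than 1 gene, with a median of 0.180 peaks per kb, followed by the fibrillar chains with 0.121. Col23a1, with 26 and 26 peaks over 294 kb, and Col25a1, with 19 and 28 over 468 kb, were among the 5 loci with the most peaks but not among the densest. At the other end, Col11a1 had 2 and 3 peaks over 190 kb, and Col6a2, with one of the higher promoters, had 1 and 2 peaks over its 27.9 kb and flanks. The cartilage set of types II, IX, X and XI had a median of 0.0451 peaks per kb, against 0.0714 over the other collagen genes.

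**Figure D3:**
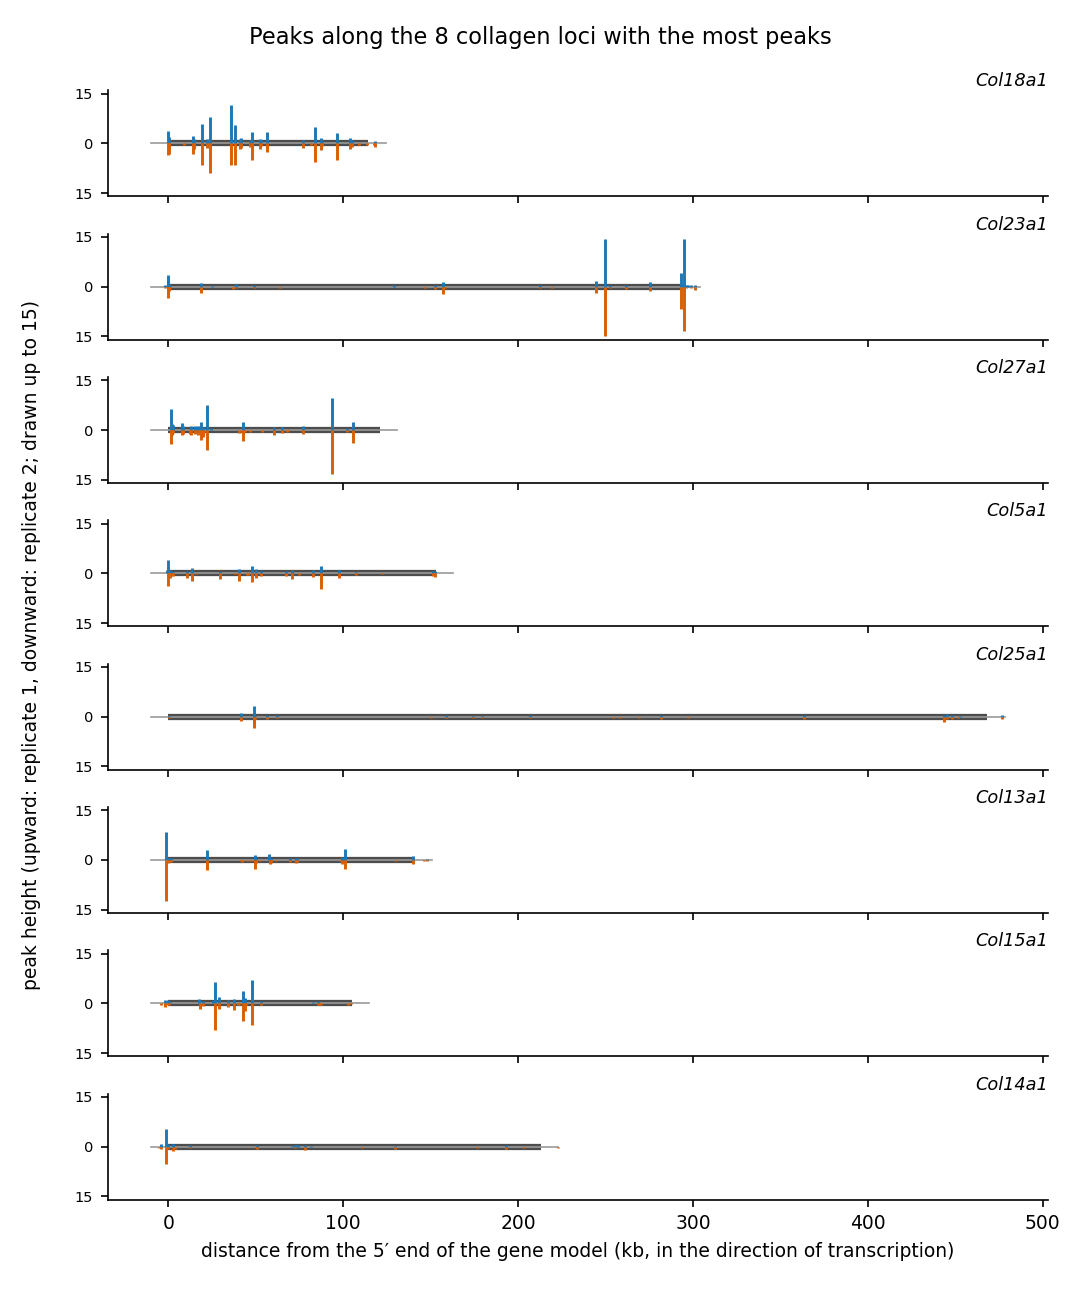
Peaks along the 8 collagen loci with the most peaks, by distance in kb from the 5′ end of the gene model (thick bar, with 10 kb flanks), with heights upward for replicate 1 and downward for replicate 2, drawn up to 15. The 14.3 and 25.3 peak of Col23a1 lies near the 3′ end of the gene, while the highest peaks of Col18a1 and Col15a1 lie in the part nearer the 5′ end.

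Of the peaks counted in collagen loci, 63.2% in replicate 1 and 65.8% in replicate 2 were in introns and more than 1 kb from every TSS. Those within 1 kb of a TSS of the collagen gene itself were 13.9% and 12.4%, and those within 1 kb of the TSS of another gene 6.19% and 5.23%. The median height was 0.756 and 0.589 for the intronic peaks, and 0.855 and 0.755 for the peaks near the collagen TSSs. Along gene bodies of at least 20 kb, cut into 4 equal parts, the part at the 5′ end held 31.0% and 29.6% of collagen peaks, against 28.1% and 28.4% over all protein-coding genes. The part at the 3′ end held 22.7% and 20.9%, against 24.7% and 24.3%.

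Several of the highest peaks in these loci sat at the starts of neighbours in the flanks. They were at Pef1 in the Col16a1 locus (27.8 in replicate 1 and 39.6 in replicate 2), Adprhl2 in that of Col8a2 (27.1 and 19.5) and Slc39a7 in that of Col11a2 (22.8 and 13.7). The peak at the Phykpl start, with its midpoint 822 bp beyond the end of Col23a1, measured 14.4 and 13.5. The peak at the Pfkfb4 start in the Col7a1 locus measured 9.85 and 17.7. These 5 peaks count in the locus totals above but are at other genes' promoters.

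Distal peaks, with midpoints more than 1 kb from every TSS, included some far above the collagen promoters. The highest by the mean of both libraries was in intron 5 of Col23a1, with 14.3 in replicate 1 and 25.3 in replicate 2. Replicate 1 had it at chr11:51539801-51539940 and replicate 2 at chr11:51539701-51539880. These intervals overlap only in part, and each height belongs to its own interval. The replicate 1 peak was 250 kb from the Col23a1 TSS and 44.9 kb from that of Phykpl. Intron 36 of Col27a1 held a peak of 9.54 and 13.4, and intron 55 of Col16a1 one of 12.9 and 9.91. A peak 1.52 kb upstream of Col13a1 measured 8.56 and 12.5. Intron 2 of Col18a1 held peaks of 11.5 and 6.63 and of 7.83 and 8.88. The first of these was higher in replicate 1 and the second in replicate 2, so their order was not settled. Intron 3 of Col8a2 had 7.73 and 9.01, intron 3 of Col26a1 6.38 and 8.51, intron 2 of Col12a1 8.11 and 6.76 and intron 2 of Col15a1 6.37 and 8.07. Of these 10 peaks, 9 were in introns and 1 was upstream. Col26a1, with no promoter peak in replicate 1, was among their genes.

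Among the 22 collagen genes with a promoter peak in both libraries, 13 had a distal peak in the locus higher than the promoter peak in both libraries (59.1%), against 20.5% of all protein-coding genes with a promoter peak in both. Long genes have more distal peaks, and of genes of at least 100 kb it was 11 of 17 collagen genes (64.7%), against 33.2% of all. The comparison reads the low promoter heights given above a second time. With promoters of 2 kb on each side it was 13 of 26 collagen genes, against 18.9% of all genes. In Col13a1 the highest distal peak was 12.5 times the promoter peak in replicate 1 and 13.2 times in replicate 2. This is the peak 1.52 kb upstream, which itself becomes the promoter peak with promoters of 2 kb on each side. In Col8a2 it was 10.8 and 13 times, and in Col15a1 7.88 and 13 times. At Col4a5 the relation was the reverse, with the highest distal peak at 0.205 and 0.497 and the promoter at 2.64 and 2.39. Col25a1, Col11a1, Col5a2 and Col6a2 also had no distal peak above the promoter in either library.

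**Figure D4:**
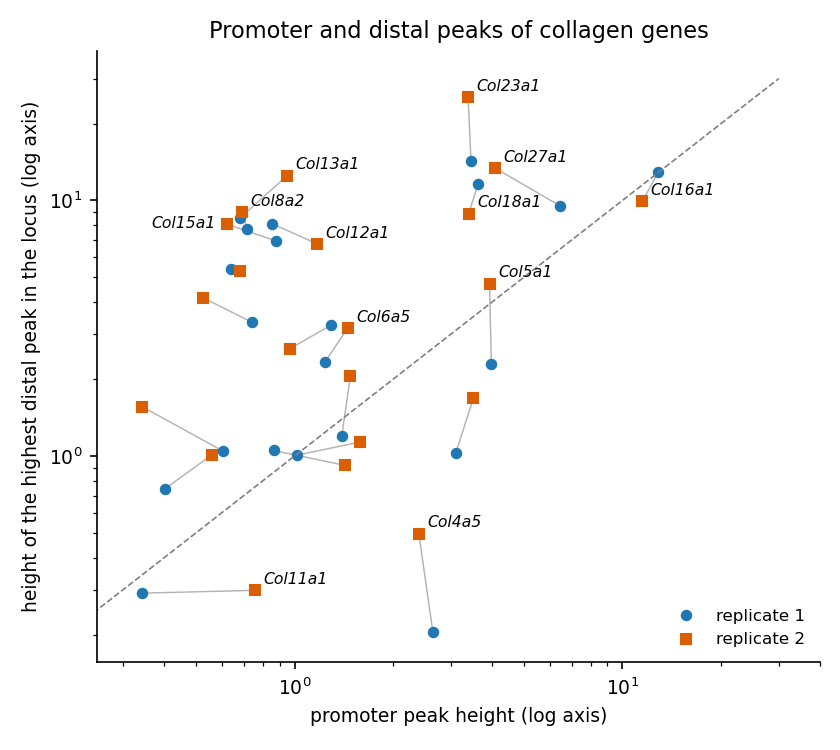
Height of the highest distal peak in the locus against the height of the promoter peak (both log axes) for 21 collagen genes, with circles for replicate 1, squares for replicate 2, a grey line joining the libraries of a gene and a dashed line of equal height; Col6a2 had no distal peak in replicate 1 and is not drawn. For 13 genes both points lie above the line, and Col13a1, Col8a2 and Col15a1 lie furthest above it in replicate 2.

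A pair of the high distal peaks is shown for its footprints, with the bounds of the replicate 1 peaks. They are from Col23a1 at chr11:51539801-51539940 (plus strand) and from Col18a1 at chr10:77130661-77130820 (minus strand). Capitals again mark bases inside a footprint of both libraries.
Col23a1 intron 5: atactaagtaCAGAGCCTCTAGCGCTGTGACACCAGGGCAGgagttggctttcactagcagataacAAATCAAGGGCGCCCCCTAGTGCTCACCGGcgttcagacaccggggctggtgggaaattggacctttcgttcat
Col18a1 intron 2: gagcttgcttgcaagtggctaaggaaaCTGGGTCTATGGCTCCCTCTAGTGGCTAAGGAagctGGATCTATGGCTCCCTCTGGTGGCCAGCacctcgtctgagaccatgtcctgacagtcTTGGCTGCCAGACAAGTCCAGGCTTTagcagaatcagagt

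In the Col23a1 peak 61 of 140 bases were in footprints of both libraries, and in the Col18a1 peak 86 of 160. The CTCF core motif matched on the opposite strand at bases 77 to 86 of the Col23a1 stretch and at bases 40 to 49 and 74 to 83 of the Col18a1 stretch, each time wholly inside the footprints. The Col23a1 match runs past the end of the replicate 2 interval given above. The 15 highest distal peaks of the collagen loci found in both libraries held the motif in 7 (46.7%). Of the 2957 shared distal peaks anywhere that were at least as high in replicate 1, 42.6% held it, and of all 79967 shared distal peaks 17.3%. The share in the high collagen peaks was thus close to that of high distal peaks in general. In 150 bp around the centre, 22.7% of the 229 shared distal peaks of collagen loci held it, against 16.7% of all. The AP-1 site TGANTCA was in 8.30%, against 5.82%, the NFI site in 13.5%, against 14.9%, and the HNF4 site in 0 of 229, against 1.01%.

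The peaks of collagen loci recurred between the mice as peaks did elsewhere. Of the 319 peaks of replicate 1, 283 overlapped a peak of replicate 2 by at least 1 bp (88.7%, exact 95% binomial interval 84.7 to 92.0%), against 87.6% of all peaks of replicate 1. Of the 454 peaks of replicate 2, 62.3% overlapped one of replicate 1 (57.7 to 66.8%), against 62.2% of all. For footprints it was 75.9% of 560 in replicate 1 (72.1 to 79.4%), against 77.2%, and 31.2% of 1231 in replicate 2 (28.6 to 33.9%), against 33.4%. These intervals cover counting error over peaks or footprints only. Heights of the 283 pairs had a Spearman's rho of 0.911, and log2 heights a Pearson's r of 0.933. Both are taken across peaks of the same 2 libraries and describe those libraries. The log2 ratio of replicate 2 to replicate 1 had a median of 0.24 and an SD of 0.51. Peaks of 1 library alone were low. The 36 found in replicate 1 alone had a median of 0.338, while its shared peaks had 0.906. The 171 found in replicate 2 alone had a median of 0.363, while its shared peaks had 1.17.

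**Figure D5:**
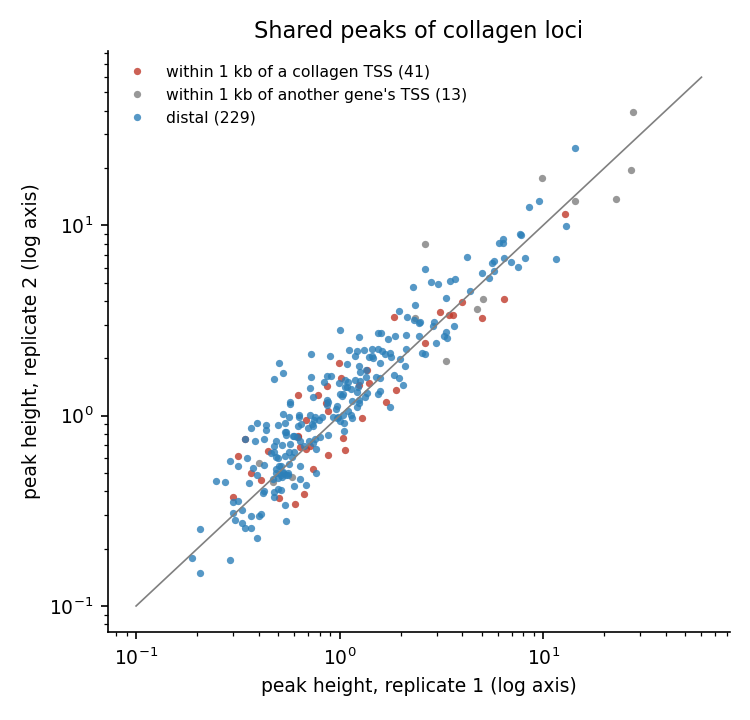
Heights in replicate 2 against replicate 1 (both log axes) of the 283 overlapping peaks of collagen loci, by position, with the line of equal height. The points follow the line over the whole range, and the highest include peaks at the starts of other genes.

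The excluded chains and the genes that make, bind and break down collagen give a scale for these promoters. The 7 excluded chains all had promoter peaks in both libraries, with a median of 3.98 in replicate 1 and 3.64 in replicate 2, and the lowest was Col3a1 with 0.820 and 0.969. Genes for the folding and modification of collagen chains inside the cell had one at 18 of 19, against 65.3% of all protein-coding genes. Their medians were 7.45 and 6.34. The highest were P4hb, a subunit of prolyl 4-hydroxylase (25.5 and 24.1), the prolyl 3-hydroxylase gene P3h1 (20.5 and 27.8), P4ha1, the catalytic partner of P4hb (24.9 and 18.4), and the lysyl hydroxylase gene Plod3 (16.1 and 15.6). P4ha3 had a peak in replicate 1 only, of 0.316. Plod3, the lowest of the 4 highest by the mean of both libraries, was above every one of the 37 collagen promoters in each library. Those 4 were picked as the highest of the 19, while P3h3 of the same list had 0.761 and 0.646.

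Genes for propeptide cleavage and crosslinking had a promoter peak in both libraries at 11 of 12, against 65.3% of all protein-coding genes. Their medians of 1.35 and 1.26 were near those of the collagen genes. The highest were the procollagen C-proteinase gene Bmp1 (3.59 and 4.36), the lysyl oxidase-like genes Loxl4 (3.37 and 2.32) and Loxl3 (1.68 and 1.60), and the N-proteinase gene Adamts2 (2.39 and 2.08). Loxl2 had none. Of the collagen receptors 7 of 9 had one, against the same 65.3%. They were led by the integrin chains Itgb1 (16.2 and 11.4) and Itga1 (7.87 and 11.1) and the kinase receptor Ddr1 (6.39 and 5.71). The platelet receptor gene Gp6 and the leukocyte receptor gene Lair1 had none. Of the genes for collagen degradation and uptake 3 of 6 had one, again against 65.3%. The collagenase genes Mmp8 and Mmp13 had none, and the osteoclast protease gene Ctsk had a peak of 0.328 in replicate 2 only.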

How the data were processed

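DNase-seq of kidneys gave 2 libraries that the labels put in 1 group, so no test between groups was made. They share a donor code in the labels, but their biosamples and animal numbers differ, so each was taken as 1 animal. Per the labels and the file descriptions, the deposited files are on mm10 and each library's peaks and footprints were derived from its own alignments. Names of the aligner and callers were not given in the sources used here. Per library the authors deposited 2 peak lists, of which the longer was the main one and the shorter, stricter one an alternative. The authors' peak signal is a height with no scaling stated; within a tolerance of 0.05 steps, 100% of heights below 1 were whole multiples of the library's step. The deposited footprints carry 1 false discovery rate (q-value) of 0.01, and the deposited q-values per base are listed only below 0.05. Since mm10 represents C57BL/6J, reads of CAST/EiJ alleles may have aligned less well, and no source used here says how they were handled. Absolute depth is unknown.

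From these files, promoter peaks (500 bp on either side of any GENCODE M21 basic TSS, the highest peak counted), loci (gene body and 10 kb on each side), distal peaks (midpoint over 1 kb from every TSS), shared peaks (at least 1 bp) and motif matches were computed with Python 3.11.15, pandas 2.3.3, NumPy 2.4.6, SciPy 1.17.1 and pysam 0.24.0. Mitochondrial genes were left out. Overlap counting was tested on simulated peaks. Every member is accounted for; values are given for members with a promoter peak, the 8 densest loci, the 5 with the most peaks, loci with none and the 10 highest distal peaks, and of other lists for up to 4 genes with the highest promoters and those without one. Other genes named were chosen after their values were seen. The members and lists were chosen with earlier results of these data known. The CpG classes, the split at 100 kb, the cartilage set, the comparison of promoter and distal heights, the CTCF motif and the start sites of the comprehensive annotation were added after values had been seen. Alternatives covered peak lists, height, windows, flanks, start sites, overlap and leaving out each library.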

Additional observations from a re-analysis of the deposited data

How the results depend on the processing

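The share of collagen genes with a promoter peak in both libraries was 51.4% with the stricter list (19 genes; Col11a1, Col14a1 and Col8a2 were lost), against 62.0% of all genes. It was 70.3% with promoters of 2 kb on each side (26 genes), against 69.5%, and Col19a1, Col26a1, Col2a1 and Col9a2 were gained. With the gene 5′ end alone it was 56.8% (21 genes, with Col27a1 lost), against 61.6%. With the comprehensive annotation, chosen after seeing the data, it was 64.9% (24; Col26a1 and Col2a1 were gained), against 66.9%. With only the upper 50% of peaks by height it was 32.4% (12 genes), against 58.9%. Leaving out each library in turn gave 22 to 26 genes with a promoter peak (70.3% against 68.0% of all genes without replicate 1, 59.5% against 66.2% without replicate 2), 20 to 24 with a promoter footprint, 36 with a locus peak either way, 0.0421 to 0.0811 peaks per kb and 0.0731 to 0.212 footprints per kb.

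The median promoter height, as the mean of both libraries, was 1.28 as reported, 2.21 with promoters of 2 kb on each side and 1.03 with the gene 5′ end alone. It stayed below that of all genes in each library under these settings, the stricter list and the comprehensive annotation. The number of genes with a distal peak above the promoter lay between 11 and 15 under the same settings, chosen for this count after seeing the data. The median locus density, the mean of the medians of both libraries, was 0.0616 as reported. It was 0.0388 with the stricter list (0.0704 over all genes), 0.0265 with the upper 50% of peaks (0.0526) and 0.0922 with 50 kb flanks (0.0969). Demanding 50% reciprocal overlap lowered recurrence in replicate 2 to 77.1% of replicate 1 peaks and 42.1% of footprints, since fewer overlaps then count. The other causes were not tested. No paired analysis was possible because there is 1 group. With depth unknown, the absence of a peak, as at Col2a1 or Col6a1 in replicate 1, cannot be told apart from a peak below detection.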
